A study of Ovis aries with 2 samples.

Results

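The mitochondria-rich class is a small set of cells in a single-cell RNA library of control sheep testis. It holds 133 of the 7030 control cells, or 1.89% (exact Clopper-Pearson 95% interval 1.59% to 2.24%), and 133 of the 15839 cells of both libraries. Its members were chosen by 3 measured values: at least 500 unique molecular identifiers (UMIs, each counting a captured RNA molecule once), 5% to 20% of them from the 13 protein-coding mitochondrial genes, and no sign of leukocytes or spermatogonia by a few genes. The last criterion asked for 0 UMIs of C1QA, C1QB, C1QC and PTPRC together and at most 1 UMI of TKTL1. It removed 5 of 138 cells, 3 by the leukocyte genes and 2 by TKTL1. The class was set against the 6110 control cells with under 1% mitochondrial UMIs that met the same exclusions.

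The study holds 2 libraries of testis from sheep of 8 months, made with a 10x Genomics 3' droplet kit: 1 labelled ZEA0.75 and 1 labelled Control. ZEA is the usual abbreviation of zearalenone, an oestrogenic mould toxin, but the labels neither spell it out nor give the unit of 0.75 or the way of exposure. They also do not say how many animals gave each library. The ZEA library had 22148456 UMIs in 8809 cells and the control library 53044981 UMIs in 7030 cells. With 1 library per group nothing was tested between groups, and all intervals cover counting error only. Because the class was chosen by measured values of these cells, every difference from the cells under 1% is a description, also where its interval lies far from 0.

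Sertoli cells are the somatic cells of the seminiferous tubule. They nurse the germ cells, seal the tubule with tight junctions, secrete inhibin and carrier proteins, take up the residual bodies shed by spermatids, and receive follicle-stimulating hormone through its receptor. Germ cells far outnumber them in the adult testis. INHA encodes the alpha chain of inhibin, FSHR the receptor of follicle-stimulating hormone, FATE1 a testis protein at contacts between mitochondria and endoplasmic reticulum, and CITED1 a transcriptional coactivator. These 4 genes were the markers named for the class.

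The label "Sertoli-like" held for only some of the class. At least 1 UMI of the 4 markers was found in 59 of the 133 class cells, or 44.4% (35.8% to 53.2%), against 48 of the 6110 cells under 1%, or 0.786% (0.580% to 1.04%). The other 74 class cells had none of the 4. The cells under 1% were deeper, with a median of 6335.5 UMIs against 1064 in the class, so the higher share in the class was reached at lower depth. Sertoli transcription factors were nearly absent from the class: SOX9 had 3 UMIs in 2 cells, and WT1 and GATA4 had 1 UMI each. RNA of spermatids was found in nearly every cell of the class, and 11 cells formed sub-clusters led by genes of early spermatocytes or of connective tissue. The class is therefore called by its rule below and not by a cell type.

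**Figure D1:**
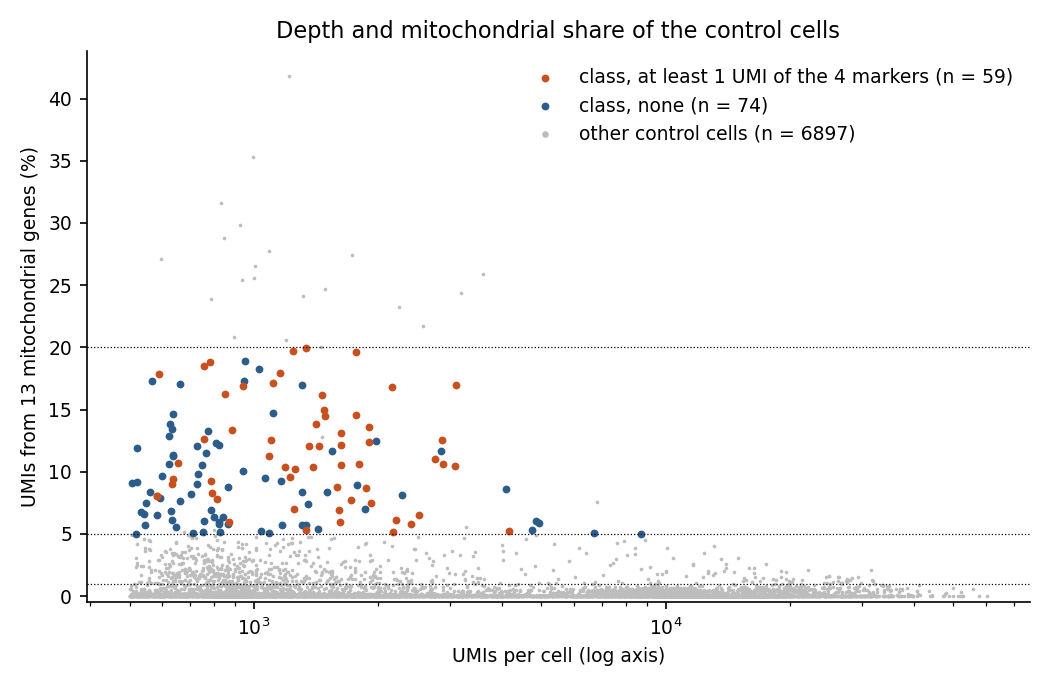
Each point is a control cell, placed by its UMIs (x, log axis) and by the share of its UMIs from the 13 mitochondrial genes (y, percent), with dotted lines at 1%, 5% and 20%. The 59 class cells with a UMI of INHA, FATE1, FSHR or CITED1 are orange, the 74 without are blue and the other 6897 cells are grey; the class lies between 506 and 8731 UMIs, while grey cells reach 60272 UMIs.

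The mitochondrial share of class cells ran from 5.03% over a median of 9.42% to 19.9%. The median of the cells under 1% was 0.0356%. The boundaries cut through a continuous run of values: the 3 cells just inside the lower one had 5.03%, 5.03% and 5.05%, and the 3 just outside it had 4.94%, 4.90% and 4.89%. At the upper one, 19.7%, 19.7% and 19.9% lay inside and 20.1%, 20.6% and 20.8% outside. Class cells had a median of 635 detected genes, against 1903.5 in the cells under 1%. When every cell was thinned at random to 400 UMIs outside the mitochondrial genes, the medians were 319 genes in the class and 321 under 1%, so at matched depth the number of genes per cell hardly differed. The class carried 0.352% of the control library's UMIs. The 2 libraries shared 15 cell barcodes, of which 2 belonged to class cells.

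The mitochondrial genes themselves, which chose the cells, differed in make-up and not only in amount. COX3, a subunit of cytochrome c oxidase, had 4775 UMIs and was seen in all 133 class cells. It gave 26.5% of mitochondrial UMIs in the class and 26.1% under 1%, nearly equal parts. CYTB, cytochrome b of complex III, gave 18.3% in the class and 8.08% under 1%. COX1, the catalytic subunit of cytochrome c oxidase, stood the other way round, with 8.68% in the class and 20.7% under 1%. ATP6 and ND4 kept similar parts: ATP6, of ATP synthase, gave 16.8% in the class and 14.5% under 1%, and ND4, of complex I, 13.3% in the class and 14.2% under 1%.

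All following levels are CPM, the counts of a gene per 1000000 UMIs outside the 13 mitochondrial genes. Both were summed over the cells of a set. The figures call these UMIs non-mitochondrial. The 13 genes that chose the cells thus do not enter the denominator. Still in it are 2 genes without a symbol, described further on. They had 21727 CPM and 16505 CPM in the class and 480 CPM and 396 CPM under 1%, so the choice may still affect the denominator. Of the 4 markers, CITED1 had by far the most UMIs: 100 in 49 class cells, with up to 7 in a cell, against 19 UMIs in 18 of the cells under 1%. Its level was 592 CPM in the class and 0.390 CPM under 1%, a log2 ratio of 10.57 (exact conditional binomial 95% interval 9.85 to 11.36). FATE1 had 16 UMIs in 14 class cells and 2 UMIs under 1%, or 94.7 CPM against 0.0411 CPM. For both genes a set of cells with under 1% of the library's UMIs held most of what the library had, 53.5% of all CITED1 UMIs and 64.0% of all FATE1 UMIs. FSHR had 10 UMIs, 1 in each of 10 class cells, and 1 UMI under 1%. INHA had 19 UMIs in 15 class cells and 29 UMIs under 1%, or 112 CPM against 0.595 CPM. The class held 66.7% of the library's FSHR UMIs but 31.7% of its INHA UMIs.

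Some class cells held several of the markers, though most of the 59 held 1. Of the class cells, 37 had a UMI of 1 of the 4 genes, 18 of 2, 1 of 3 and 3 of all 4. Under 1%, 48 cells had 1 of the genes and none had 2 or more. In the whole control library 55 cells had at least 2 UMIs of the 4 genes together: 36 were class cells, 9 lay over 20% mitochondrial UMIs, 7 between 1% and 5%, and 3 under 1%. With at least 3 UMIs, 34 cells were left, 21 of them in the class, 7 over 20%, 6 between 1% and 5% and 0 under 1%. Cells with these markers thus also lay outside both boundaries of the class.

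The summed level of the 4 markers was higher at each step of the mitochondrial share in the control library. It was 1.05 CPM under 1% (exact Poisson interval 0.780 to 1.38), 22.0 CPM at 1% to 3% and 60.2 CPM at 3% to 5%. It reached 531 CPM at 5% to 10% (398 to 695), 1330 CPM at 10% to 20% (1072 to 1631) and 1800 CPM over 20% (1286 to 2451). Intervals of neighbouring steps overlapped between 1% to 3% and 3% to 5%, and between 10% to 20% and over 20%, and lay apart elsewhere. The number of cells was lower at each of these steps, with 481 cells at 1% to 3%, 113 at 3% to 5%, 71 at 5% to 10%, 62 at 10% to 20% and 21 over 20%.

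**Figure D2:**
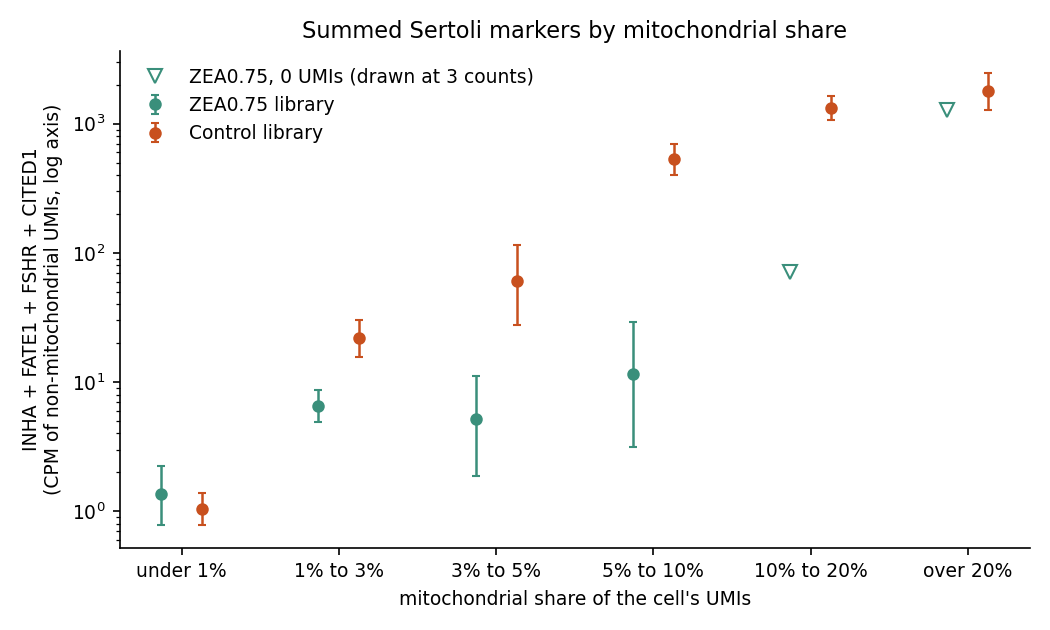
Summed level of INHA, FATE1, FSHR and CITED1 (y, CPM of non-mitochondrial UMIs, log axis) by mitochondrial share of the cell (x), for the ZEA0.75 library (teal) and the Control library (orange) with exact Poisson 95% intervals; open triangles mark 0 UMIs, drawn at 3 counts. The control values run from 1.05 CPM under 1% to 1800 CPM over 20%, while the ZEA library has no value above 11.5 CPM in any step where a UMI was seen.

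Of 24 genes listed as Sertoli markers, 16 matched a symbol in the files. AMH, INHBB, CLU, DHH, CLDN11, DEFB119, HOPX and BEX2 matched none and were not analysed here. The 16 genes together gave 1444 CPM in the class (1269 to 1638) and 209 CPM under 1% (205 to 213), a log2 ratio of 2.79 (2.60 to 2.97). AARD, a gene known from mouse Sertoli cells, had 59 UMIs in 37 class cells, up to 6 in a cell, and 17 UMIs under 1%. NR0B1, a nuclear receptor that represses steroid synthesis, had 6 UMIs in 6 class cells against 1 UMI under 1%. SHBG, the androgen-binding protein, had 4 UMIs in 4 class cells and 2 UMIs under 1%. KITLG, the ligand of the KIT receptor on germ cells, had 2 UMIs in 1 class cell and 1 UMI under 1%.

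The list also held genes that did not follow this pattern. TF, transferrin, had 0 UMIs in the class, which allows up to 17.8 CPM at 3 counts, and 43 UMIs under 1%. NR5A1 had 0 UMIs in the control library. AMHR2, the receptor of anti-Müllerian hormone, and MRO were found across the library: AMHR2 had 17 UMIs in the class and 8327 under 1%, a log2 ratio of -0.76 (-1.54 to -0.08) that became 0.40 after thinning every cell to 400 UMIs, and MRO had 5 UMIs in the class and 1677 under 1% (-0.22, -1.84 to 1.01). These 2 genes gave nearly all of the list's 10180 UMIs under 1%. By UMIs the contrast in the list therefore rests on CITED1, AARD, INHA, FATE1, FSHR and NR0B1. The transcription factors SOX9 (3 UMIs in the class and 4 under 1%), WT1 (1 and 4) and GATA4 (1 and 53) added few UMIs to it. Their log2 ratios were 7.76 (4.99 to 10.32), 6.17 (0.55 to 9.51) and 2.44 (-2.89 to 4.98), and only the interval of GATA4 included 0.

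Across all genes, 2891 had enough UMIs to be compared, meaning at least 20 UMIs in the class and in the number predicted for it from the cells under 1%, added up. Of these, 577 (20%) were at least 2-fold higher in the class and 605 (20.9%) at least 2-fold lower, with a median log2 ratio of -0.21. Without the 11 cells of sub-clusters 3 and 7, described further on, 370 genes were at least 2-fold higher and 400 at least 2-fold lower, of 2305 that reached the entry limit. No p-value stands behind these counts. A gene scarce in either set reached the entry limit only through the other set, so its direction was fixed. Of the genes compared, 602 had no symbol, 123 of them among the higher ones.

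The 15 genes with the highest ratios had log2 values from 9.63 to 11.06. CLEC12B, an inhibitory lectin receptor, led with 37 UMIs in 26 class cells and 5 UMIs under 1%. PNMT, the enzyme that makes adrenaline from noradrenaline, had 90 UMIs in 34 class cells, up to 14 in a cell, and 14 UMIs under 1%, or 533 CPM against 0.287 CPM. DEFB123, a beta-defensin, had 90 UMIs in 49 class cells and 20 UMIs under 1%. Each of the 15 was scarce under 1% and entered through its class UMIs alone, and the naming rule asked for at least 5 class cells. Their spread over class cells and their few UMIs under 1% are thus descriptions of how they were chosen. TSPO, a protein of the outer mitochondrial membrane, had the most UMIs of the 15: 156 in 59 class cells and 40 under 1%, or 924 CPM against 0.821 CPM and a log2 ratio of 10.14 (9.63 to 10.67). GSTA1 and GSTA4, alpha-class glutathione transferases, had 102 and 40 class UMIs, with log2 ratios of 10.09 (9.47 to 10.76) and 10.32 (9.26 to 11.55).

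The rest of the 15 were of several kinds. HSD17B10 and ABHD11 encode mitochondrial enzymes and had 32 UMIs in 26 class cells and 77 UMIs in 42 class cells. NAA10, the catalytic subunit of an N-terminal acetyltransferase, had 50 UMIs in 31 class cells, and the clathrin light chain CLTB had 25 UMIs in 17. ASB9, a substrate adaptor of a ubiquitin ligase, had 122 UMIs in 43 class cells and the small heat shock protein HSPB1 had 62 UMIs in 36. GNG11, a gamma subunit of G proteins, had 32 UMIs in 21. CITED1 and AARD completed the 15. After thinning to 400 UMIs, TSPO was seen in 24.8% of class cells and 0.0491% of cells under 1%, CITED1 in 18.8% and 0.0164%, and PNMT in 17.3% and 0.0327%. These shares come from the cells in which the genes were chosen, so they are no independent support. Between 28.7% (HSPB1) and 67.2% (PNMT) of the UMIs of each of the 15 genes in the whole control library lay in the class, again a description of genes chosen by their ratio.

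The 10 genes with the lowest ratios had log2 values from -3.42 to -2.50 and 2 to 9 UMIs in the class. FBXO39, an F-box protein, had 2 UMIs in the class and 6160 under 1%, or 11.8 CPM against 126 CPM. FBP1, fructose-1,6-bisphosphatase of gluconeogenesis, had 9 UMIs in the class and 15544 under 1%, a log2 ratio of -2.58 (-3.71 to -1.66). IZUMO3, of the IZUMO family of sperm proteins, had 4 UMIs in the class and 7565 under 1%. The others were SLC36A3, TEX45, TSPAN19, NXN, GLRB, NUP43 and C14orf28. With so few class UMIs their intervals were wide, for example -6.46 to -1.56 for FBXO39.

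**Figure D3:**
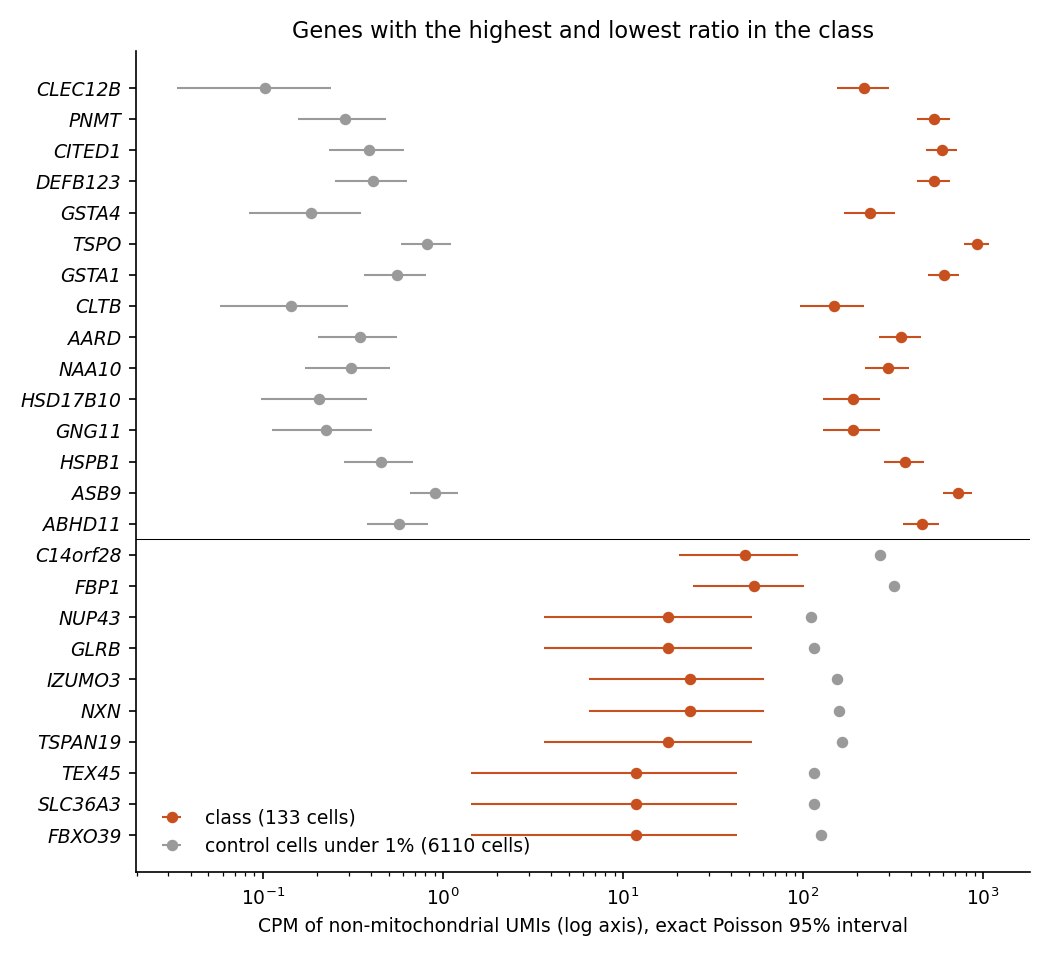
Levels of the 15 genes with the highest and the 10 with the lowest ratio (x, CPM of non-mitochondrial UMIs, log axis, with exact Poisson 95% intervals) in the class (orange) and in the control cells under 1% (grey). For the 15 highest genes the class lies between 148 CPM (CLTB) and 924 CPM (TSPO) and every grey value lies below 1 CPM; for the 10 lowest, grey values lie between 111 CPM (NUP43) and 319 CPM (FBP1).

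Genes of the pathway downstream of the FSH receptor lay on both sides. The receptor signals through the stimulatory G protein alpha chain GNAS to cyclic AMP, protein kinase A and factors such as CREM. The list of 17 found genes gave 1409 CPM in the class and 1254 CPM under 1%, a log2 ratio of 0.17 (-0.02 to 0.35), and 0.43 (0.23 to 0.62) without sub-clusters 3 and 7. Among the 5 that were compared, 2 were at least 2-fold higher and 2 at least 2-fold lower, with a median of -0.60. For this and each later list, the shares over all compared genes were 20% higher and 20.9% lower. In each list, members scarce in either set entered only through the other, so their direction was fixed. Counts and medians that hold such members cannot test a list. PRKAR2B, a regulatory subunit of protein kinase A, had 30 UMIs in 22 class cells and 68 UMIs under 1%, a log2 ratio of 6.99 (6.32 to 7.63), while its relative PRKAR2A stood at -1.29 (-1.69 to -0.91). GNAS had 96 UMIs in 49 class cells, or 568 CPM against 46.0 CPM (3.63, 3.32 to 3.92), and CREM, a factor of spermatids, stood at -1.39 (-2.20 to -0.69).

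Retinoid handling is a known task of Sertoli cells, which store vitamin A and make retinoic acid for the germ cells. The 15 found genes gave 521 CPM in the class and 190 CPM under 1% (log2 1.46, 1.14 to 1.76). ALDH1A2, which makes retinoic acid, stood at 0.78 (0.05 to 1.43). Its relatives ALDH1A1, with 18 class UMIs and 4 under 1%, and ALDH1A3, with 12 and 5, were below the entry limit of 20 UMIs.

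The 16 found genes of secreted and carrier proteins gave 1137 CPM in the class and 404 CPM under 1% (1.49, 1.28 to 1.70). Of them, 7 had 0 UMIs in the class and 5 were compared. Among these 5, 4 were at least 2-fold higher and none was at least 2-fold lower, with a median of 5.11. Members scarce under 1%, such as IGFBP2, entered through the class alone, so this count and median cannot test the list. IGFBP2, which binds insulin-like growth factors, had 20 UMIs in 14 class cells and 14 UMIs under 1% (8.69, 7.63 to 9.78). CST3, the protease inhibitor cystatin C, had 69 UMIs in 34 class cells, or 409 CPM against 11.9 CPM (5.11, 4.72 to 5.47). APOE, a lipid carrier, had 23 UMIs in 5 class cells, 15 of them in 1 cell and 20 in the 4 cells of sub-cluster 3. SPARC, a matrix protein, stood at 1.11 (0.24 to 1.86), with 14 UMIs in 7 cells, 11 of them in sub-cluster 3. The rest of the class had 3 UMIs of SPARC, or 18.3 CPM against 38.3 CPM under 1%, too few to give a direction.

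Genes of glucose uptake, lactate and glutamine, with which Sertoli cells feed the germ cells, were lower in sum: 1178 CPM in the class against 2075 CPM under 1% (log2 -0.82, -1.03 to -0.62). Of 5 compared, 1 was at least 2-fold higher and 2 at least 2-fold lower, against 20% and 20.9% over all compared genes. These counts are thus no result about the list. The higher one was PKM, pyruvate kinase, at 1.59 (0.96 to 2.16). The lower ones were GLUL, glutamine synthetase, at -1.45 (-1.81 to -1.11) and PFKP, a phosphofructokinase, at -1.12 (-1.90 to -0.44). HK1, a hexokinase, had 272 CPM in the class and 456 CPM under 1% (-0.75, -1.20 to -0.33).

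The lists for junctions and phagocytosis, other known tasks of Sertoli cells, had intervals of the ratio that included 0. Junction genes of the blood-testis barrier had 533 CPM in the class and 466 CPM under 1% (0.19, -0.12 to 0.49). Of 3 compared, none was at least 2-fold higher and 1 was at least 2-fold lower: PARD3, a polarity protein, at -1.20 (-2.41 to -0.22). The adhesion molecule JAM3 stood at -0.35 (-1.19 to 0.37). Genes of phagocytosis and the lysosome had 231 CPM in the class and 251 CPM under 1% (-0.12, -0.61 to 0.33), and the only compared one, LAMP1, stood at -0.63 (-1.54 to 0.15). Inhibin, activin and anti-Müllerian hormone signalling had 296 CPM in the class and 239 CPM under 1% (0.31, -0.12 to 0.71), and AMHR2 was its only compared gene. Without sub-clusters 3 and 7 this list stood at 0.61 (0.16 to 1.02), an interval that leaves out 0. Steroid and nuclear hormone receptors had 130 CPM in the class and 96.7 CPM under 1% (0.43, -0.25 to 1.03), and the compared one, THRB, stood at -0.35 (-1.48 to 0.58).

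Nuclear genes of oxidative phosphorylation were not used to choose the cells. The respiratory chain is built from proteins of both genomes, with complexes I, III, IV and V holding subunits from each. For complex I the 26 found nuclear genes gave 11905 CPM in the class and 9907 CPM under 1%, a log2 ratio of 0.27 (0.20 to 0.33). Against the control cells of 1% to 5% the ratio was -0.18. Of the 21 compared, 9 were at least 2-fold higher and none at least 2-fold lower, with a median of 0.68 against -0.21 for all compared genes. NDUFS5 stood highest, with 131 UMIs in 58 class cells and 776 CPM against 133 CPM (2.54, 2.28 to 2.79), followed by NDUFA3 (2.00, 1.69 to 2.29) and NDUFA2 (1.99, 1.56 to 2.40).

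The later complexes differed more from the cells under 1%. Complex III had a log2 ratio of 0.75 (0.58 to 0.92), with 3 of 5 compared genes at least 2-fold higher, among them CYC1, cytochrome c1, at 4.73 (4.18 to 5.24) and UQCRQ at 3.37 (2.97 to 3.74). Against the control cells of 1% to 5% complex III stood at 0.15 (-0.03 to 0.32), an interval that included 0. Complex IV with cytochrome c had 0.92 (0.82 to 1.02), with 4 of 7 at least 2-fold higher, and 0.31 (0.21 to 0.42) against the control cells of 1% to 5%. COX5B had 238 UMIs in 73 class cells, or 1409 CPM against 156 CPM (3.18, 2.98 to 3.36), and COX6A1 stood at 3.92 (3.56 to 4.26). COX6B2, known in human and mouse as the testis form of subunit 6B, stood at -0.50 (-0.78 to -0.23), while the general form COX6B1 stood at 3.23 (2.73 to 3.69). Thus the general and the testis form of the same subunit lay on opposite sides.

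Complex V, ATP synthase, gave 4458 CPM in the class and 2540 CPM under 1% (0.81, 0.71 to 0.91), with 6 of 8 compared genes at least 2-fold higher. The 3 genes of its membrane ring led: ATP5MC2 at 7.49 (6.71 to 8.25), ATP5MC3 at 5.31 (4.97 to 5.64) and ATP5MC1 at 3.97 (3.34 to 4.54). Members scarce under 1%, such as ATP5MC2, entered through the class alone, so the count of 6 cannot test the list. Against the control cells of 1% to 5% complex V stood at 0.54 (0.42 to 0.65). ATP5IF1, the inhibitor of the enzyme, stood at -0.62 (-0.86 to -0.39). Complex II, which has no mitochondrially encoded subunit, gave 207 CPM in the class and 205 CPM under 1% (0.01, -0.51 to 0.49), from 2 found genes, and its only compared gene SDHB stood at 0.02 (-0.50 to 0.50).

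Other genes for mitochondria gave a mixed picture. Mitochondrial gene expression and import had 2800 CPM in the class and 2920 CPM under 1% (-0.06, -0.19 to 0.07). Of 5 compared genes, 2 were at least 2-fold higher and 1 at least 2-fold lower, against 20% and 20.9% over all compared genes. SLC25A4, an exchanger of ADP and ATP, had 59 UMIs in 40 class cells and 87 UMIs under 1% (7.61, 7.11 to 8.10). It entered through the class alone, so its direction was fixed. The chaperone HSPA9 stood at 2.36 (1.73 to 2.93). TFAM, the packaging factor of mitochondrial DNA, stood at -1.34 (-1.70 to -1.01).

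Ribosomal protein genes gave the largest sum of the lists in the class, 59657 CPM against 24719 CPM under 1% (1.27, 1.24 to 1.30). Of 28 compared, 20 were at least 2-fold higher and none at least 2-fold lower, with a median of 1.28. RPS23 stood at 3.90 (3.68 to 4.12) and RPS12 at 3.64 (3.51 to 3.77). Glutathione, thioredoxin and antioxidant enzymes gave 13267 CPM in the class and 5165 CPM under 1% (1.36, 1.30 to 1.42). Of the 21 found genes, 5 had 0 UMIs in the class. Members scarce under 1%, such as GSTA1 and GSTA4, entered through the class alone, so their direction was fixed. Of the 10 compared, 7 were at least 2-fold higher and none at least 2-fold lower. Beside GSTA1 and GSTA4 these were MGST3, with 177 UMIs in 55 class cells (7.61, 7.33 to 7.89), the thioredoxin TXN (5.69, 5.27 to 6.08), PRDX2 (5.40), PRDX6 (4.48, 4.14 to 4.80) and GSTM3. GSTM3 was present in most cells of the class, with 1500 UMIs in 126 cells, and stood at 1.14 (1.07 to 1.22).

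Heat shock genes and chaperones gave 11965 CPM in the class and 6456 CPM under 1% (0.89, 0.83 to 0.95), but the control cells of 1% to 5% had 15653 CPM, a ratio of -0.39 (-0.45 to -0.32). Of 11 compared genes, 5 were at least 2-fold higher and 1 at least 2-fold lower. A few cells carried much of this sum: HSP90AA1 had 677 UMIs in 116 class cells, 106 of them in 1 cell. Without the 11 cells of sub-clusters 3 and 7 described below, the ratio of the list was 0.23 (0.14 to 0.32). HSPA8, a constitutive chaperone, had 60 UMIs in 32 class cells and 90 UMIs under 1%, or 355 CPM against 1.85 CPM. It entered through the class alone, so its direction was fixed. Immediate early genes had 397 CPM in the class and 262 CPM under 1% (0.60, 0.23 to 0.94), and -0.03 (-0.57 to 0.46) without those 11 cells; BTG1, the only one compared, stood at 0.38 (-0.22 to 0.93). Apoptosis genes had 343 CPM in the class and 355 CPM under 1% (-0.05, -0.44 to 0.32), and neither of the 2 compared genes, CDKN1A at -0.50 (-1.31 to 0.20) and MCL1 at -0.42 (-1.06 to 0.16), differed by 2-fold. Histone and nuclear RNA genes had 1362 CPM in the class and 645 CPM under 1% (1.08, 0.88 to 1.26), with 2 of 3 compared genes at least 2-fold higher, and -0.09 (-0.43 to 0.23) without those cells. Against the control cells of 1% to 5%, which had 2079 CPM, the list stood at -0.61 (-0.81 to -0.42). The higher ones were the testis histone H1-6 at 4.33 (4.03 to 4.62) and HNRNPU, which binds nuclear RNA, at 1.06 (0.68 to 1.42). H1-6 likewise entered through the class alone.

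**Figure D4:**
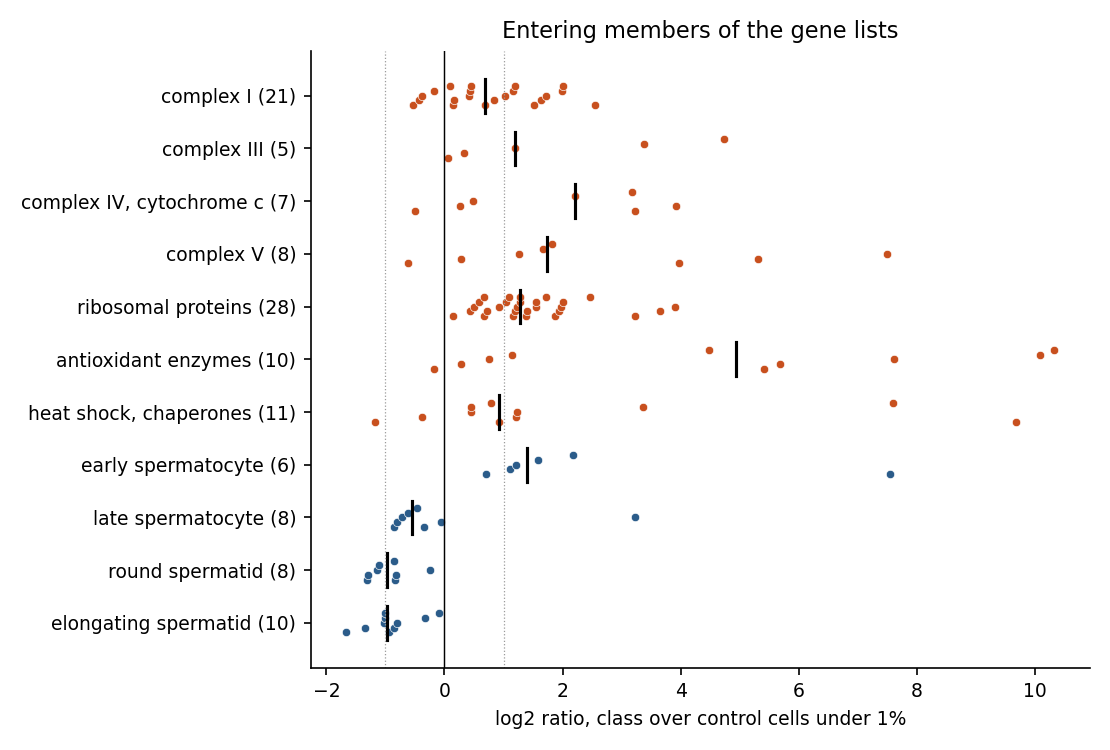
Log2 ratio of the class over the control cells under 1% (x) for each compared member of 11 gene lists (rows, with the number compared), functional lists in orange and germ cell markers in blue; black bars are medians and dotted lines mark a 2-fold difference. Medians lie at 1.28 for ribosomal proteins and 4.94 for antioxidant enzymes, and at -0.98 for round and -0.97 for elongating spermatid markers. Members scarce in either set entered only through the other, as GSTA1 and GSTA4 did in the antioxidant row.

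Spermatid RNA was present throughout the class, at a lower level than in the cells under 1%. Markers of elongating spermatids were seen in all 133 class cells and gave 4535 CPM, against 9131 CPM under 1% (-1.01, -1.11 to -0.91). Against the control cells of 1% to 5%, which had 2975 CPM, the ratio was 0.61. Of 10 compared genes none was at least 2-fold higher and 4 at least 2-fold lower, with a median of -0.97. TPPP2, the one with the most UMIs, had 144 UMIs in 79 class cells, or 852 CPM against 2177 CPM, and CABS1 stood at -1.66 (-2.57 to -0.89). Markers of round spermatids gave 4943 CPM in the class and 10853 CPM under 1% (-1.13, -1.23 to -1.04), with 4 of 8 at least 2-fold lower; against the 4304 CPM of the control cells of 1% to 5% the ratio was 0.20 (0.10 to 0.30). TSSK1B, a kinase of spermatids, had 474 CPM in the class and 1182 CPM under 1%. HMGB4, a chromatin protein of spermatids, had 479 UMIs in 120 of the 133 class cells, or 2836 CPM against 6970 CPM. Droplets also take up RNA released by other cells, and its part in these values was not tested.

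Markers of late spermatocytes gave 2250 CPM in the class and 2898 CPM under 1% (-0.37, -0.51 to -0.22). Of 8 compared, 1 was at least 2-fold higher, PIWIL1, a protein of the piRNA pathway, with 50 UMIs in 16 class cells (3.23, 2.79 to 3.63). AURKA, a kinase of cell division, stood at -0.85 (-1.56 to -0.22). Markers of early spermatocytes gave 2599 CPM in the class and 621 CPM under 1% (2.06, 1.92 to 2.20), with 5 of 6 at least 2-fold higher. Of these, TEX101 entered through the class alone, so its direction was fixed. SYCP1 and SYCP2, proteins of the synaptonemal complex that joins chromosomes in meiosis, stood at 2.18 (1.65 to 2.66) and 1.58 (1.28 to 1.86). The sum rested on few cells: TEX101 had 176 UMIs in 9 class cells, 49 of them in 1 cell, and without sub-clusters 3 and 7 the list stood at 0.07 (-0.26 to 0.38). The control cells of 1% to 5% had 2641 CPM, a ratio of -0.02 (-0.17 to 0.12). Spermatogonial markers had 9 UMIs in 9 class cells, or 53.3 CPM against 22.0 CPM.

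Markers of other somatic cells were rare in the class. Leydig markers had 1 UMI in the class, HSD17B3, with 6 of the 7 found genes at 0, among them INSL3, STAR and CYP11A1. Lymphocyte and red cell markers had 0 UMIs, which allows up to 17.8 CPM; PTPRC, of the lymphocyte list, was at 0 by the rule, which removed every cell with a UMI of it. Endothelial markers had 4 UMIs, all in 1 cell, and peritubular myoid markers 8 UMIs in 6 cells, or 47.4 CPM against 3.61 CPM under 1% and 179 CPM in the control cells of 1% to 5%. Pericyte markers had 13 UMIs in 3 cells, or 77.0 CPM against 33.8 CPM under 1%. Stromal fibroblast markers had 55 UMIs in 7 cells, or 326 CPM against 73.7 CPM (2.14, 1.73 to 2.53). Without sub-clusters 3 and 7 the stromal list had 4 UMIs and stood at -1.25 (-3.12 to 0.11). The pericyte list then had 1 UMI and stood at -2.12 (-7.43 to 0.36). Both intervals included 0, so no direction is shown for either list without these cells. In the whole class DCN, decorin, had 20 UMIs in 3 cells, 17 of them in 1 cell. COL3A1, a collagen chain, stood at 0.40 (-0.41 to 1.10) and gave 3490 of the 3588 stromal UMIs under 1%. ABCC9 gave 1503 of the 1646 pericyte UMIs there, so 1 gene made up most of each sum under 1%. Of the macrophage list, 9 of 13 genes had 0 UMIs in the class, C1QA, C1QB and C1QC by the rule, and 65 of its 70 UMIs were AIF1, which also had 43244 UMIs under 1%. The list stood at -1.12 against the cells under 1% and at 0.52 against those of 1% to 5%.

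Within the class, cells with a UMI of the 4 markers differed from those without. The 59 cells with a marker had a median of 1419 UMIs and 10.7% mitochondrial UMIs, and the 74 without had 806.5 UMIs and 8.36%. The genes with the highest ratios lay mostly with the markers. TSPO was seen in 71.2% of the 59 cells and 23.0% of the 74, DEFB123 in 62.7% and 16.2%, and GSTA1 in 61.0% and 12.2%. NAA10 was seen in 49.2% and 2.70%, and HSD17B10 in 42.4% and 1.35%. At 400 UMIs per cell the shares were lower but kept that order, with TSPO in 35.6% of the 59 and 16.2% of the 74, NAA10 in 27.1% and 1.35%, and ASB9 in 28.8% and 2.70%. GNG11 did not follow it, with 5.08% and 5.41% at that depth. At full depth the spermatid gene HMGB4 was seen in 89.8% of the cells with a marker and 90.5% of those without, and TEX101 in 0 of the 59 and 9 of the 74. At 400 UMIs per cell HMGB4 was seen in 59.3% of the 59 and 71.6% of the 74.

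Clustering on genes outside the mitochondrial set split the class into 8 sub-clusters of 4 to 28 cells. Since the clusters were built from these genes, their levels are descriptions. Sub-clusters 1, 5 and 6, with 15, 24 and 17 cells, had the highest Sertoli sums, 2908 CPM (2078 to 3960), 2306 CPM (1780 to 2939) and 3259 CPM (2643 to 3976). Their median mitochondrial shares were 12.7%, 12.4% and 10.6%. CITED1 was seen in 11, 14 and 15 of their cells, and all 10 FSHR UMIs lay in them. PNMT was most frequent in sub-cluster 6, with 51 UMIs in 12 cells (1714 CPM), together with TKT, a transketolase, CNPY2, CRYAB, a small heat shock protein, and REXO2 and PLIN2. Sub-cluster 5 was led by RAB18, HSD17B10, COX8A, PRKAR2B and TPM2, and sub-cluster 1 by PRDX2, PLAC9, AARD, S100A11 and SNRNP25.

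Sub-cluster 0, with 24 cells and the lowest median depth of 635 UMIs, had a Sertoli sum of 1392 CPM and was led by MAEL, RANGRF, KIF5C, EFCAB11 and TXNDC8. Sub-cluster 2, with 28 cells, stood apart: its Sertoli sum was 202 CPM (65.6 to 471) and its median mitochondrial share 6.39%. It was led by LCA5, IQGAP2, DNAH8, SPATA17 and CCNYL1, of which DNAH8 and SPATA17 are genes of the sperm tail. Sub-cluster 4, with 14 cells, had the highest elongating spermatid sum, 11556 CPM, and was led by the small nuclear RNA 7SK, with 260 UMIs in 3 cells, and by 5_8S_rRNA, GPR18, ODF1 and TMEM190. The 6 sub-clusters described so far were given no name. In all of them but sub-cluster 6 both spermatid sums lay above the Sertoli sum.

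The remaining 2 sub-clusters carried other markers. Sub-cluster 7 had 7 cells with a median of 4841 UMIs and 5.88% mitochondrial UMIs. Its Sertoli sum was 0 UMIs and its early spermatocyte sum 10182 CPM (9146 to 11304), with all 10 found markers of that list detected. TEX101, TEX30, TOP2B, ZBTB44 and REXO5 led it, and H1-6 had 93 of its 103 class UMIs there. Sub-cluster 3 had 4 cells, a stromal fibroblast sum of 9474 CPM and pericyte and endothelial sums of 2229 CPM and 743 CPM. It was led by RARRES2, MGP, DCN, APOE and SPARC, and held all 34 MGP UMIs of the class. Leaving out these 11 cells brought the Sertoli sum of the class to 1869 CPM, a log2 ratio of 3.16 (2.97 to 3.35). At a Leiden resolution of 0.5 instead of 1 the clusters held 41, 30, 55 and 7 cells. The one of 7 cells had the same marker sums as sub-cluster 7. Sub-cluster 3 was not separate there: 52 stromal fibroblast UMIs lay in the cluster of 55 cells, which had the highest Sertoli sum, 2647 CPM.

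**Figure D5:**
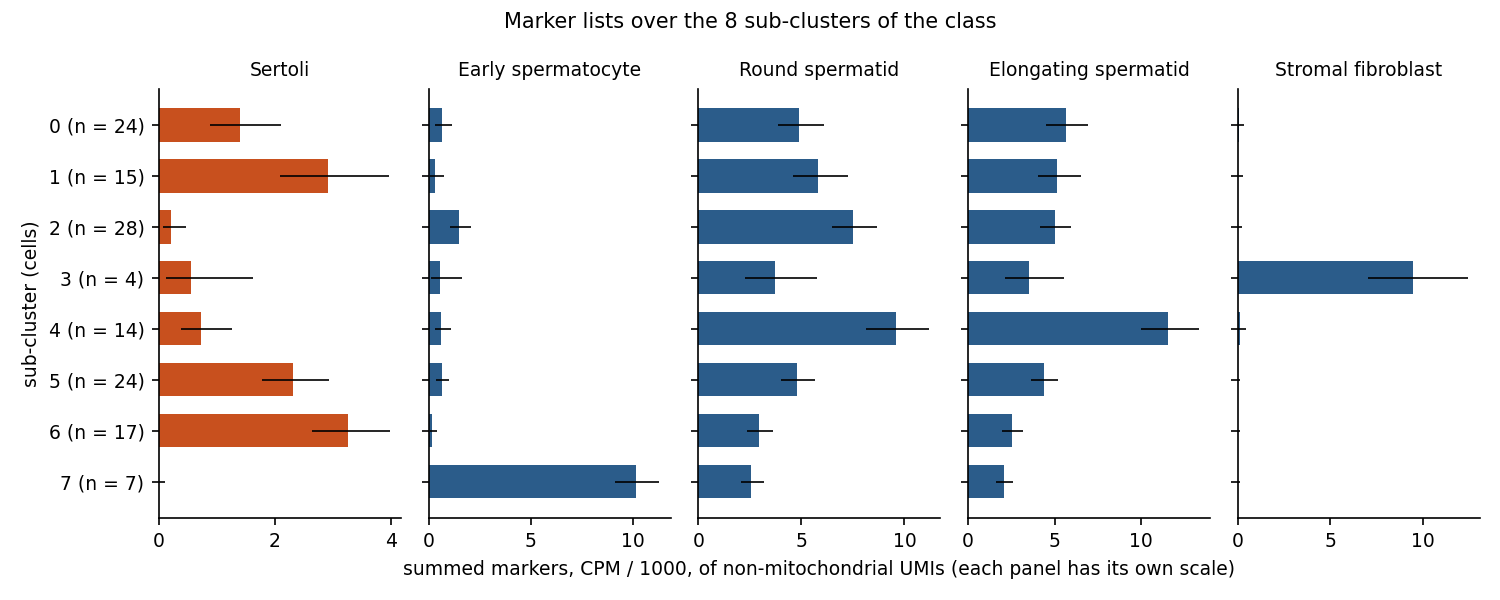
Summed markers of 5 lists (x, CPM of non-mitochondrial UMIs divided by 1000, with exact Poisson 95% intervals, each panel with its own scale) in the 8 sub-clusters of the class (rows, with their cells). Sub-clusters 1, 5 and 6 have the highest Sertoli sums, early spermatocyte markers stand at 10182 CPM in sub-cluster 7, stromal fibroblast markers at 9474 CPM in sub-cluster 3, and spermatid markers are seen in all 8.

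Genes without a symbol were counted in all sums but cannot be named here. The 2 with the most UMIs among the higher genes, ENSOARG00000000002 and ENSOARG00000000004, were seen in all 133 class cells. ENSOARG00000000002 had 3670 UMIs in the class, or 21727 CPM, against 480 CPM under 1% (5.50, 5.45 to 5.55). ENSOARG00000000004 had 2788 UMIs, or 16505 CPM, against 396 CPM under 1% (5.38, 5.32 to 5.44). Both were likewise higher in the mitochondria-rich cells of the ZEA library than in its cells under 1%, with log2 ratios of 3.74 (3.70 to 3.78) and 3.80 (3.77 to 3.83). The mitochondrial genes that chose the cells have identifiers from ENSOARG00000000006 (ND1) to ENSOARG00000000035 (CYTB). The identifiers of the 2 unnamed genes lie directly below that range. Their higher levels in both libraries may therefore only repeat the rule that chose the cells. Whether these 2 genes are mitochondrial was not tested.

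The same rule applied to the ZEA library gave a set of another make-up. It held 457 of 8809 ZEA cells, or 5.19% (4.73% to 5.67%), against 1.89% in the control library, with a median of 716 UMIs in the ZEA set and 1064 in the control class. Among cells of 10% to 20% alone the shares were 0.783% (0.610% to 0.990%) in the ZEA library and 0.882% (0.677% to 1.13%) in the control library, and the intervals overlapped. FATE1, FSHR, AARD and DEFB123 had 0 UMIs in the ZEA set, against 16, 10, 59 and 90 UMIs in the control class. A count of 0 allows up to 7.66 CPM in the ZEA set. FATE1, FSHR and AARD had 0 UMIs in the whole ZEA library. CITED1 had 2 UMIs in the ZEA set against 100 in the control class, INHA 2 against 19 and PNMT 3 against 90. Not all of the 15 highest genes of the class were scarce in the ZEA set. HSPB1 was higher there, at 1108 CPM against 367 CPM (log2 ratio of the ZEA set over the control class 1.59, 1.21 to 2.00). The interval of GNG11 included 0 (-0.19, -0.82 to 0.47), and the rest of the 15 were lower in the ZEA set. Some other Sertoli markers were not lower in the ZEA set either. KITLG had 23 UMIs in the ZEA set and 2 in the control class, or 58.7 CPM against 11.8 CPM (log2 ratio of the ZEA set over the control class 2.31, 0.29 to 5.44). WT1 had 11 UMIs in the ZEA set against 1 in the control class and GATA4 7 against 1, with intervals of the ratio that included 0, and TF had 10 against 0. KITLG and WT1 were not particular to the ZEA set. In ZEA cells of 1% to 5% they stood higher, KITLG at 182 CPM and WT1 at 67.8 CPM against 28.1 CPM in the ZEA set. GATA4 was lower there, at 6.94 CPM against 17.9 CPM. AMHR2 was at 94.5 CPM in the ZEA set and 100.6 CPM in the control class (-0.09, -0.96 to 0.83).

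Instead, markers of other somatic cells were frequent in the ZEA set. Peritubular myoid markers gave 4744 CPM there against 47.4 CPM in the control class. Stromal fibroblast markers gave 2816 CPM against 326 CPM and endothelial markers 932 CPM against 23.7 CPM. Leydig markers gave 631 CPM in 14 cells of the ZEA set, against 5.92 CPM in the control class. Immediate early genes stood at 7053 CPM in the ZEA set and 397 CPM in the control class. Spermatid sums were close, with 4262 CPM in the ZEA set and 4535 CPM in the control class for elongating spermatids, and 4732 CPM and 4943 CPM for round spermatids. The sets were chosen by the same rule, but treatment, library depth, cell make-up and the version of the counting software differ between the libraries and cannot be told apart.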

How the data were processed

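The values are raw UMI counts, as deposited. Per the submitters' processing notes the reads went through Cell Ranger 3.1.0 with STAR. Per the file headers this holds for the ZEA matrix, while 5.0.0 wrote the control matrix. For the genome build, the sources used here name none. Of 27054 listed genes 10636 lack a symbol, and no cell had under 500 UMIs.

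Counts were summed over the cells of a set and given as CPM of the UMIs outside the 13 mitochondrial genes, with exact Poisson intervals (scipy 1.17.1). Ratios have exact conditional binomial intervals and shares Clopper-Pearson intervals, all at 95%. For bounds a count of 0 was set to 3 counts. Sub-clusters used scanpy 1.11.5 (scaling to 10000 per cell, 1000 variable genes, 15 components, 10 neighbours, Leiden at resolution 1). Scrublet, tried as an alternative, marked 205 control cells, 0 of them in the class; it marked 2 ZEA cells and so did not work there, and doublets stayed in the main sets. The ratio code was checked on simulated counts.

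The class, the lists and the rules were chosen with earlier results of these data known. Named were all found Sertoli markers, the 15 highest and 10 lowest ratios (symbol given, 2-fold or more, interval off 0, and for the highest 5 or more class cells), 2 to 4 compared members of each list with the largest ratios, and 5 genes leading each sub-cluster; a few genes that this rule names are not reported here. COX6B2, ATP5IF1, HSP90AA1, HMGB4, the last 4 antioxidant genes, the genes without a symbol and the list members below the entry limit were picked after their values were seen.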

Additional observations from a re-analysis of the deposited data

How the results depend on the processing

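Each setting below changed 1 choice of the processing. No paired analysis was possible because each group has 1 library. The 2 libraries bear no replicates to leave out.

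Against 577 genes at least 2-fold higher, there were 381 with a mitochondrial share of 5% to 10%, 232 with 10% to 20%, 958 with 3% to 20%, 144 after thinning to 400 UMIs per cell, 227 with an entry limit of 50 UMIs and 4493 with none. Against 605, the counts of genes at least 2-fold lower were 369 with 10% to 20%, 388 with equal weight per cell, 160 after thinning, 332 with entry at 50 UMIs and 1220 with no entry rule.

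The Sertoli sum stayed higher in the class, by 2.79 in the main setting. It was 2.05 with 5% to 10%, 3.45 with 10% to 20%, 2.03 with 3% to 20%, 3.61 against cells of 500 to 2000 UMIs, 3.04 with equal weight and 3.11 after thinning. The elongating spermatid sum was -1.15 with all UMIs as denominator, -1.22 with at least 1000 UMIs, -2.14 against cells of 500 to 2000 UMIs, -1.31 with equal weight and -1.27 after thinning. Complex I was 0.12 with all UMIs, 0.53 against cells of 500 to 2000 UMIs and 0.34 with equal weight. Complex V was 0.67 with all UMIs, 0.66 with 5% to 10%, 1.01 with 10% to 20%, 0.62 with 3% to 20%, 1.30 against cells of 500 to 2000 UMIs and 0.93 with equal weight. Ribosomal proteins were at 1.13 with all UMIs, 1.13 with 5% to 10%, 1.45 with 10% to 20%, 1.05 with 3% to 20%, 1.40 with at least 1000 UMIs, 1.60 against cells of 500 to 2000 UMIs and 1.31 with no exclusion.

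The share of ZEA cells was 4.40% with 5% to 10%, 0.783% with 10% to 20%, 13.6% with 3% to 20% and 1.44% with at least 1000 UMIs. In the control library it was 1.01%, 0.882%, 3.50% and 0.982% in the same order, so that the ZEA share lay below the control share with 10% to 20%, with overlapping intervals. Leaving out doublets gave no value in the ZEA library.

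Chosen after seeing the data were 3 more alternatives. Without sub-clusters 3 and 7 there were 370 higher and 400 lower genes, a Sertoli sum of 3.16 and an elongating spermatid sum of -0.80. Without the 2 unnamed genes with the most UMIs, ribosomal proteins stood at 1.33. Against control cells of 1% to 5% there were 359 higher and 398 lower genes, the Sertoli sum was 3.97, complex V 0.54 and ribosomal proteins 0.57, while elongating spermatid markers at 0.61 and complex I at -0.18 changed sign, as did the lists for round spermatids (0.20), early spermatocytes (-0.02), macrophages (0.52), peritubular myoid cells (-1.91), heat shock (-0.39) and histone and nuclear RNA (-0.61). The cause was not tested.

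For 38 named genes there were 485 values under alternatives, of which 476 kept their sign, 346 lay inside the main interval and 4 changed the sign of a ratio whose interval excluded 0. These were AMHR2 at 0.072 against cells of 500 to 2000 UMIs, 0.40 after thinning and 0.98 against cells of 1% to 5%, and FBP1 at 0.14 against cells of 1% to 5%. The shallow cells limit single genes: most Sertoli markers rest on under 20 UMIs.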

Other observations

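Further genes of the class, chosen after their values were seen, were, like CITED1, higher in the class than in the cells under 1%. PSMB9, a subunit of the immunoproteasome, had 227 UMIs in 68 of the 133 class cells and 84 UMIs in 79 of the 6110 control cells under 1%, or 1344 CPM against 1.72 CPM. It was seen in 88.1% of the class cells with a UMI of INHA, FATE1, FSHR or CITED1 and in 21.6% of those without, and at 400 UMIs per cell in 59.3% and 12.2%. PLAC9, a small secreted protein gene, had 173 UMIs in 63 class cells and 81 UMIs under 1%, and OXT, the gene of the hormone oxytocin, had 62 UMIs in 33 class cells and 27 UMIs under 1%, or 367 CPM against 0.554 CPM. Of the 33 class cells with OXT, 30 were among the 59 with a marker. In the ZEA cells chosen by the same rule OXT had 0 UMIs, PLAC9 18 and PSMB9 106.

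The glycolytic enzyme gene GAPDH, often taken as evenly expressed, had 104 UMIs in 48 class cells and 116 UMIs in 105 cells under 1%, or 616 CPM against 2.38 CPM. In the ZEA set GAPDH had 181 UMIs in 109 of 457 cells, so it was not particular to the class. Its sperm relative GAPDHS had 515 CPM in the class and 1037 CPM under 1%. TNNT1, the troponin T of slow skeletal muscle, had 33 UMIs in 23 class cells, 19 of them in sub-cluster 6, and 27 UMIs under 1%. VIM, the intermediate filament vimentin, had 36 UMIs in 21 class cells, 10 of them in the 4 cells of sub-cluster 3, and 66 UMIs under 1%; in the ZEA set it had 912 UMIs in 265 of 457 cells.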
